A study of Mus musculus with 4 samples.

Results

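Insulin and insulin-like growth factor 1 bind the receptor tyrosine kinases Insr and Igf1r, which phosphorylate the docking proteins Irs1 and Irs2. The docking proteins recruit PI3K, whose lipid product activates the kinases Akt1 and Akt2, and Akt in turn keeps the transcription factors Foxo1 and Foxo3 out of the nucleus. In the brain this pathway acts on growth, survival and energy balance. N6-methyladenosine (m6A) is a methyl mark on adenosine in mRNA, laid down in a short consensus built around GGAC and found mostly in long exons and near stop codons.

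The 8 genes described here are Insr, Igf1r, Irs1, Irs2, Akt1, Akt2, Foxo1 and Foxo3, out of 21951 protein-coding genes of the GENCODE M21 annotation. They were chosen by name, with earlier results of these peak lists known, so every rank and fold enrichment below is a description and carries no test. m6A-seq had been run on whole brain of 4-week-old C57BL/6J mice, and the series text describes the animals as Prrc2a flox/flox, with no Cre driver named in the labels. There were 2 m6A immunoprecipitation (IP) samples and 2 input samples, the unselected RNA fragments of each IP. All 4 share genotype, age and tissue, so there is no contrast between conditions, and while the study speaks of biological replicates, the labels do not say whether they were separate animals. Whole brain mixes neurons and glia, and the cells behind a peak cannot be told apart.

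Each IP had its own list of peaks with a fold enrichment, the linear ratio of IP over input reads: 38533 peaks in replicate 1 and 30134 in replicate 2. The lists hold no read counts, so the depth is unknown and no interval can be given for a single fold value. A peak counted for a gene when it covered at least 1 bp of an exon, and the bases common to overlapping peaks of both replicates are called a shared interval. As a check of the tissue, all 13 marker genes of neurons, astrocytes, oligodendrocytes and microglia had a shared interval, beside 45.6% of protein-coding genes. Alb, Ins1 and Krt5, markers of other organs, had no peak in either list. Myh6, a heart myosin, had 1 shared interval, with 3.9 in replicate 1 and 3.17 in replicate 2. The check rests on the presence of peaks, which is not a level of expression.

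All 8 genes had at least 1 shared exonic interval, as did 45.6% of protein-coding genes (9999 of 21951). Over the 8 genes there were 31 exonic peaks in replicate 1 and 34 in replicate 2. Of these, 27 in each list were shared, or 87.1% and 79.4%, beside 67.8% and 76.8% of all peaks over exons of protein-coding genes in the respective lists. The 27 shared intervals had midpoints in the 5′ untranslated region (UTR) in 3 cases, in the coding sequence (CDS) in 13 and in the 3′ UTR in 11. The median number of shared intervals was 4 per gene, against 2 over the genes that had any. That count is not scaled to length. Per kb of spliced transcript Irs2 had 0.949, Akt1 0.743 and Foxo3 0.584, above the median of 0.583 of genes with any. Irs1 had 0.437, Insr 0.428, Igf1r 0.351, Foxo1 0.231 and Akt2 0.22, all under that median.

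The sequences below are GGACT sites, the preferred form of the consensus, that lay in a shared interval, with GGACT in capitals and 21 nt in all read 5′ to 3′ from the mm10 genome on the strand of the gene. They are examples from the 30 such sites of the genes described here, and not every site is listed. The 3′ UTR interval of Irs1 and the interval over the Igf1r stop codon hold no GGACT and so have no entry. The Akt1 site lay under peaks of only 1.14-fold in replicate 1 and 1.23-fold in replicate 2. Whether any listed adenosine was methylated was not tested. The number is the place of the adenosine on the spliced transcript.
Irs1 5′ UTR, 449, chr1:82290958-82290978: caacgttgGGACTtggcagcc
Irs1 5′ UTR, 561, chr1:82290846-82290866: ccaagcggGGACTcctcgggc
Irs1 5′ UTR, 594, chr1:82290813-82290833: cctacatcGGACTcgaccagg
Irs1 5′ UTR, 646, chr1:82290761-82290781: tgctgcagGGACTgggggaga
Irs1 CDS, 4471, chr1:82286936-82286956: cgctctcaGGACTgcccctct
Irs2 CDS, 1726, chr8:11006723-11006743: tggatagaGGACTgaggaaga
Irs2 CDS, 1739, chr8:11006710-11006730: gaggaagaGGACTtattccct
Irs2 CDS, 1908, chr8:11006541-11006561: tacccagaGGACTatggagac
Irs2 3′ UTR, 4622, chr8:10986372-10986392: ccggtgtgGGACTgaatattc
Irs2 3′ UTR, 5734, chr8:10985260-10985280: ggacagtaGGACTgatctgct
Insr 3′ UTR, 4701, chr8:3155566-3155586: gattatcaGGACTctgcccag
Igf1r 3′ UTR, 9525, chr7:68231774-68231794: ccatatttGGACTtgatggtg
Akt1 CDS, 697, chr12:112659227-112659247: tggcagatGGACTcaagaggc
Foxo1 3′ UTR, 2656, chr3:52347202-52347222: gtagataaGGACTgtgccatt
Foxo3 CDS, 2090, chr10:42196759-42196779: accctctcGGACTctctctca

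GGACT was found in 18 of the 27 shared intervals of the 8 genes, 66.7%, against 42.4% of the 21179 shared intervals over exons of protein-coding genes on 1 strand. The intervals of the 8 genes were longer, with a median of 411 nt against 337 nt for all exonic intervals, and a longer interval has more room for a match. In windows of equal length, 100 nt around each midpoint, GGACT was present in 7 of 27, 25.9%, against 15.5% of all such windows. The 95% confidence interval of 25.9%, from 13.2% to 44.7%, holds the 15.5%, so the shares at equal length are not told apart. That interval treats windows of 1 gene as independent, although they share a transcript. The wider pattern GGAC, which includes GGACT, was present in all 27, against 81.3% of all intervals. Only the strand of the gene was searched, because the mark is read on RNA. Over the 8 spliced transcripts, 58978 nt in all, 13649 nt or 23.1% lay in a shared interval, and 30 of the 79 GGACT sites fell there. That is 2.2 GGACT sites per kb inside shared intervals and 1.08 per kb outside. Irs2 alone gave 10 of the 30 sites. By gene the density was higher inside in all but Akt2, which had 0 per kb inside and 1.15 outside. The densities are not given for other genes, so they are not a trait particular to these 8. The counts do not say which adenosines carried the methyl group, since a peak is far wider than a site.

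Insr and Igf1r, the receptors, had shared intervals in corresponding places within the CDS and over the stop codon. Insr (ENSMUSG00000005534, chr8:3122061-3279617, minus strand) has 21 exons in its representative transcript, the one with the longest CDS, of 9355 nt. Igf1r (ENSMUSG00000005533, chr7:67952827-68233668, plus strand) also has 21 exons, over 11409 nt. Each had a shared interval in exon 2, which encodes part of the ligand-binding region, and one over the stop codon in exon 21. Neither had a peak in either list over exons 3 to 20. Both had more intervals in the 3′ UTR, at unlike distances from the stop codon. Insr also had a 5′ UTR interval, while the 32-nt 5′ UTR of Igf1r had none.

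The peak over the Insr stop codon (chr8:3155388-3155918) was enriched 4.59-fold in replicate 1 and 5.56-fold in replicate 2. Its second 3′ UTR interval, with its midpoint 1771 nt after the stop codon, had 4.68 and 4.12. The exon 2 interval (chr8:3258397-3258741) was lower, at 2.6 and 2.18, as was the 5′ UTR interval, at 2.65 and 1.69. Both shared intervals at the 3′ end of Insr were thus above both at its 5′ end in either list, and the values of the ends did not overlap. A further 3′ UTR peak of 2.35 appeared in replicate 1 alone.

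In Igf1r the interval over the stop codon (chr7:68226126-68226771) had 4.93 in replicate 1 and 3.48 in replicate 2. The far 3′ UTR interval, its midpoint 5324 nt after the stop codon, had 4.95 and 2.96, so the replicates differed by more than these intervals did. The exon 2 interval (chr7:68003958-68004347) had 4.29 and 2.27. The interval at 4450 nt after the stop codon had 2.71 and 2.18. A peak of 2.6, nearer the stop codon, was in the replicate 2 list only.

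When the coding sequences of the receptors were aligned by codon, 197 aligned codons lay in shared intervals of both genes, 1 in Insr alone and 16 in Igf1r alone, out of 1341. Of the covered Insr codons 99.5% were thus covered in Igf1r as well, and 92.5% the other way. GGACT did not mark these places: the coding sequences hold 4 such sites in Insr and 5 in Igf1r, and none of the 9 lay under any peak. One of them stands at the same codon in both genes, shown because it is a conserved site with no peak.
Insr CDS, 1808: caactctgGGACTggagcaaa
Igf1r CDS, 1333: cagctgtgGGACTggaaccac
The exon 2 intervals held other GGAC sites, 2 in Insr and 3 in Igf1r, among them these.
Insr CDS, 995: tctgtggaGGACAactacatt
Igf1r CDS, 585: gtgtccagGGACAttggagga

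Irs1, the first of the docking proteins, held the strongest shared pair of the set. Irs1 (ENSMUSG00000055980, chr1:82233101-82291416, minus strand) has 2 exons, of 4640 and 4504 nt, and its CDS lies wholly in the first of them. The interval chr1:82237194-82237604 covers the first 411 nt of exon 2 and so lies in the 3′ UTR. It was enriched 6.71-fold in replicate 1 and 6.67-fold in replicate 2, above 97.8% and 99.9% of the peaks of those lists. By the lower of the 2 values of its strongest pair, Irs1 was number 2 of 9990 protein-coding genes with such a pair, where the median was 2.64. Irs1 had been singled out for this value in an earlier result of these data, so the rank restates that choice. Kcnb2, a potassium channel subunit, was just above Irs1 at 6.81. The next below were Zfp563 at 6.47, Peg10 at 6.4 and Wdr66 at 6.39. Kcnb2 was 0.14 above Irs1, while the replicates of Wdr66 alone lay at 12.6 and 6.39, so the order among these genes is not resolved.

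That interval held no GGACT. Its GGAC sites were the 2 that follow.
Irs1 3′ UTR, 4725, chr1:82237510-82237530: cacaaccaGGACCtcacgtct
Irs1 3′ UTR, 4902, chr1:82237333-82237353: aactttaaGGACAgctggtca

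The other shared intervals of Irs1 showed a wide gap between replicates. The 5′ UTR interval (chr1:82290652-82291040), which holds 4 GGACT sites, had 5.09 in replicate 1 and 2.33 in replicate 2. The interval in the middle of the CDS (chr1:82289436-82289803) had 4.27 and 2.05. The interval near the end of the CDS (chr1:82286877-82287449) had 4.89 and 2.58. In these 3 the replicate 1 value was 1.89 to 2.18 times that of replicate 2, whereas the ratio was 1.01 in the 3′ UTR interval. In replicate 2 the 3′ UTR peak therefore stood far above the rest of the transcript, and in replicate 1 it did so by less. Each list also had 1 CDS peak of its own, 4.2 in replicate 1 and 2.59 in replicate 2, at different places.

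Irs2 (ENSMUSG00000038894, chr8:10984681-11008458, minus strand) had the same arrangement of 2 long exons, of 3989 and 2334 nt, but was marked along most of its length. It had 6 exonic peaks in each list and 6 shared intervals, and 5.5% of the genes with any interval had as many or more. The count rested on the overlap rule: when the midpoints of both peaks had to lie within 100 bp, Irs2 had 3 shared intervals and Irs1 still 4, which turns their order. Peaks covered 73.2% of the Irs2 transcript in replicate 1 and 82.3% in replicate 2, against 27.8% and 31.2% of Irs1. The 2 genes were apart by more than the replicates of either. In shared intervals lay 74.2% of the Irs2 CDS and 68.9% of its 3′ UTR, against 25.5% and 9.08% for Irs1. Of 1113 aligned codons, 147 lay in shared intervals of both genes, 133 in Irs1 alone and 664 in Irs2 alone. Of the codons covered in Irs1, 52.5% were covered in Irs2 as well, under the 72.9% of all aligned codons covered in Irs2. Per kb of transcript Irs2 had 0.949 shared intervals and Irs1 0.437, where the median of genes with any was 0.583.

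Several peaks of Irs2 were of similar height. Its strongest pair lay in the CDS (chr8:11006358-11007396) with 6.98 in replicate 1 and 3.54 in replicate 2. The next CDS interval (chr8:11005213-11006144) had 6.01 and 3.07. The 3′ UTR interval chr8:10985078-10985430 had 6.21 and 3.45. The interval from the last junction into the 3′ UTR (chr8:10985758-10987088) had 4.69 and 3.34. Near the start of the CDS (chr8:11007684-11008090), where an exon of 9530052E02Rik overlaps on the other strand, the values were 2.86 and 1.89, and the TruSeq RNA kit that the labels name does not mark strand. At the end of the CDS the peak of replicate 1 had 2.4, and in replicate 2 the same bases belonged to the long peak of 3.07. The gene thus had no single interval standing apart from the others in either list.

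Which docking protein had the higher peak depended on the replicate. The strongest peak of Irs2 was above that of Irs1 in replicate 1 (6.98 against 6.71) and well below it in replicate 2 (3.54 against 6.67). By the lower of both values Irs2 was number 1526 of 9990. What held in both lists was the extent of the marked sequence and not the height of the peak.

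The number of GGACT sites was similar, 12 in the longer Irs1 transcript and 11 in Irs2, yet 6 of those in Irs1 and 10 of those in Irs2 lay in shared intervals. The 5 CDS sites of Irs1 were all under a peak of at least 1 list, 2 of them in both. Of the 7 CDS sites of Irs2, 6 lay in shared intervals and 1 under no peak. One site stands at the same codon in the aligned coding sequences of both genes and is shown because its peak status differed: in Irs1 it lay under a peak of replicate 1 only, in Irs2 under peaks of both.
Irs1 CDS, 3739: atgaacatGGACTtggggcca
Irs2 CDS, 2949: atgaacctGGACTtcagttct

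**Figure D1:**
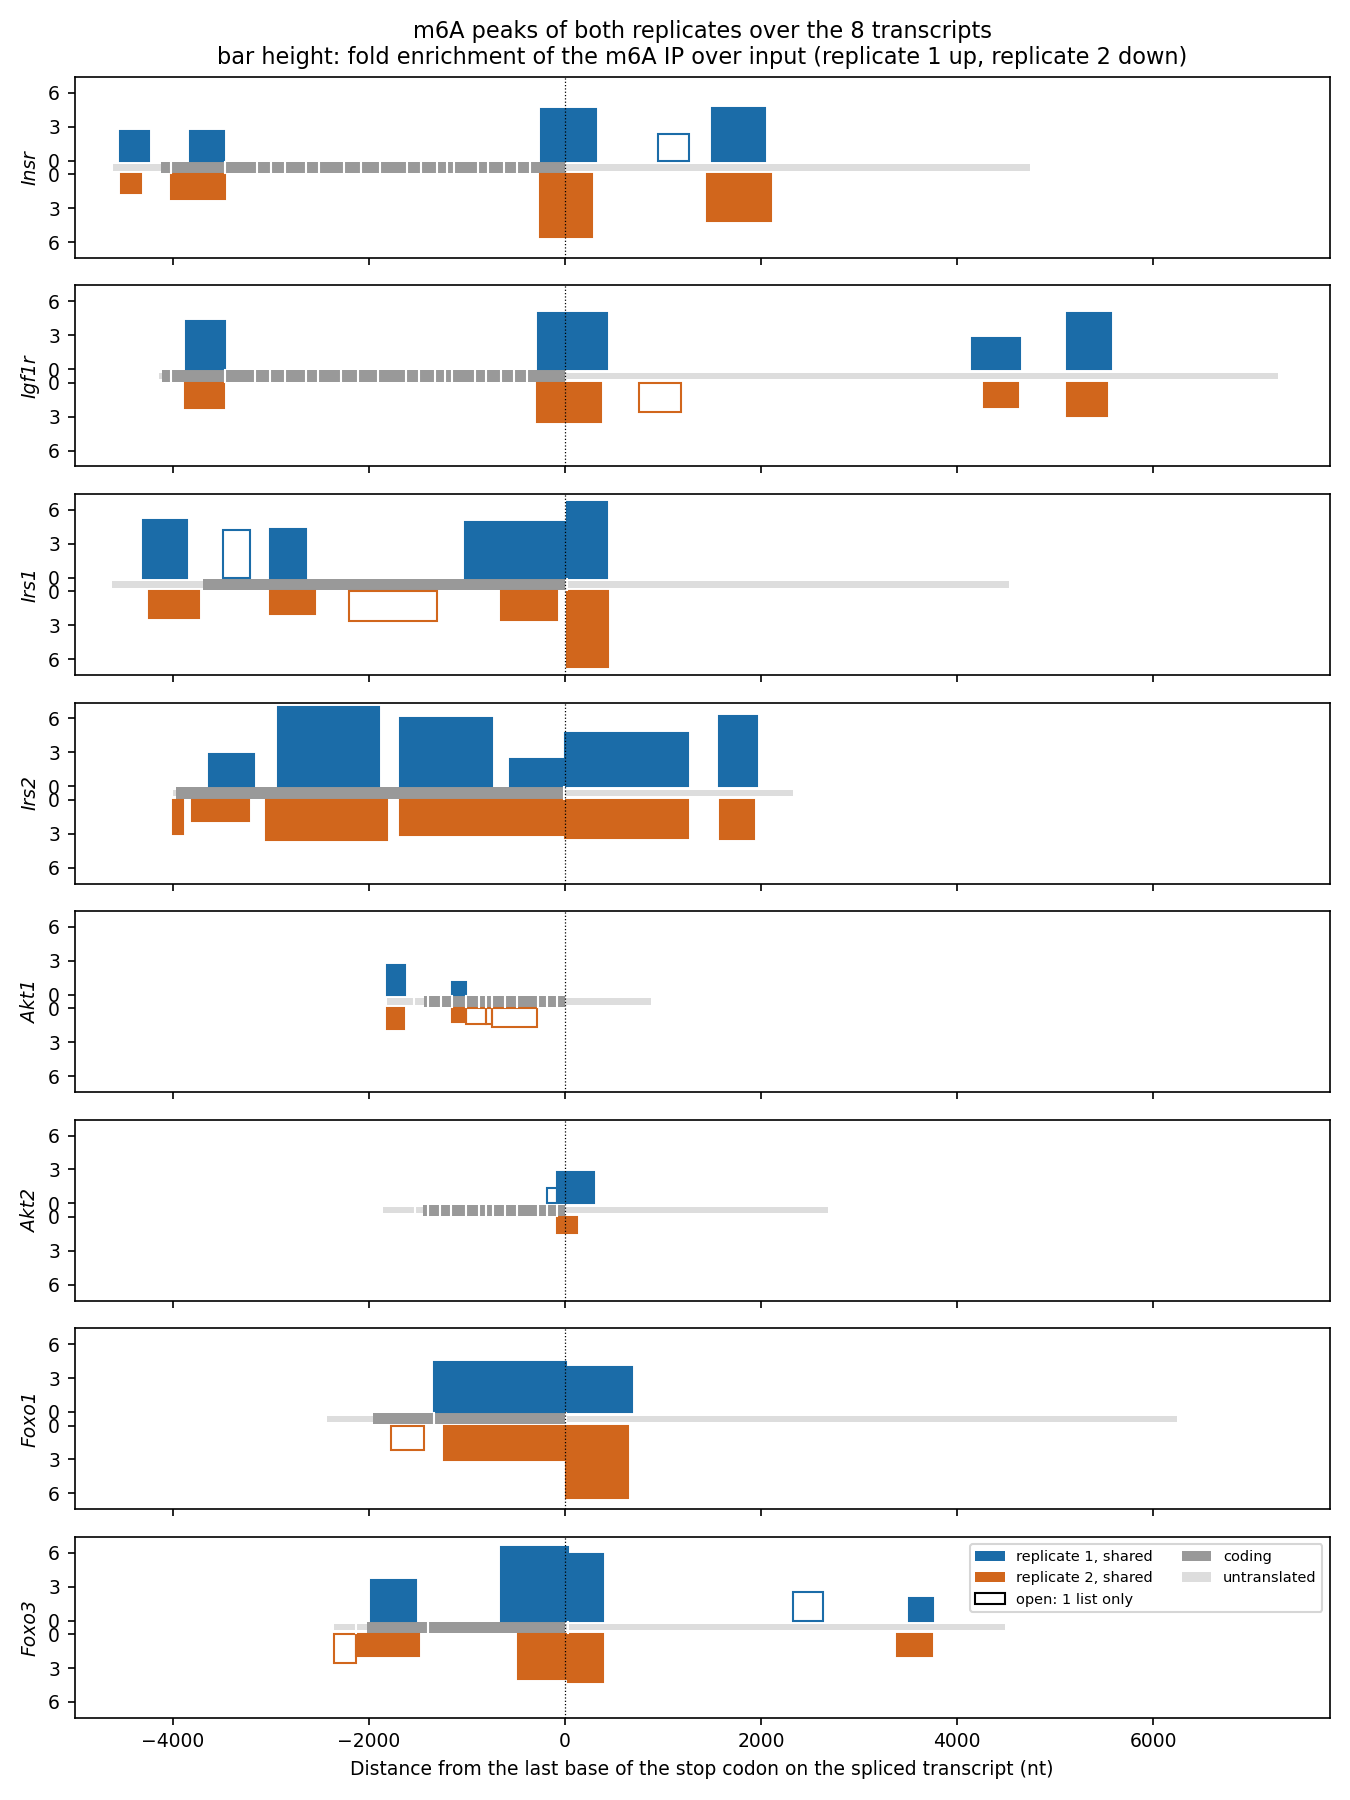
Peaks of both replicates along the spliced representative transcript of each gene, with the horizontal axis in nt from the last base of the stop codon (dotted line), coding sequence in dark grey, untranslated sequence in light grey and white ticks at exon junctions. Bar heights give the fold enrichment of IP over input, replicate 1 upward in blue and replicate 2 downward in orange. Filled bars are shared and open bars are in 1 list only. Irs2 appears covered over most of its length. Irs1 has filled bars at 4 places, with its highest bars just after the stop codon, and 1 open bar from each list.

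Akt1 and Akt2, the kinases that carry the signal on from PI3K, had the weakest shared peaks by the lower value of the strongest pair. Akt1 (ENSMUSG00000001729, chr12:112653821-112674884, minus strand, 14 exons, 2690 nt) had 2 shared intervals. That in the 5′ UTR had 2.61 in replicate 1 and 1.84 in replicate 2. That over exon 5, a coding exon of 148 nt, had 1.14 and 1.23, above 0.1% and 1.3% of the peaks in the lists, and the gene of the microRNA Mir6939 lies within the same bases. Replicate 2 had 3 more peaks over later coding exons of Akt1, of 1.4, 1.34 and 1.63, which replicate 1 lacked, so that peaks covered 60.3% of the Akt1 CDS in replicate 2 and 10.3% in replicate 1.

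Akt2 (ENSMUSG00000004056, chr7:27591552-27640826, plus strand, 14 exons, 4544 nt) had a single shared interval, chr7:27637996-27638261, over its stop codon. The values were 2.8 in replicate 1 and 1.42 in replicate 2. Replicate 1 had a further peak of 1.35 over the preceding exon. By the lower of both values the strongest pairs of Akt1 and Akt2 were number 8637 and 9726 of 9990, in the lower part of the order that Irs1 nearly led. No codon was in shared intervals of both kinases, with 50 covered in Akt1 alone and 26 in Akt2 alone of 479 aligned. These are 10.4% and 5.43% of the aligned codons, so few could coincide. The kinases share 1 aligned GGACT site, under a peak of replicate 2 only in Akt1 and under none in Akt2. It is shown for comparison with the site of the docking proteins.
Akt1 CDS, 1362: cgtgcagtGGACTggtggggg
Akt2 CDS, 1408: cgagcagtGGACTggtggggg

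Foxo1 and Foxo3, the forkhead transcription factors at the end of the pathway, had strong peaks on both sides of the stop codon. In Foxo1 (ENSMUSG00000044167, chr3:52268336-52353221, plus strand, 3 exons, 8665 nt) the interval over the second coding exon (chr3:52345139-52346476) had 4.42 in replicate 1 and 3.02 in replicate 2. The interval at the start of the last exon (chr3:52346996-52347621) had 4 and 6.37, one of the 3 pairs of the 8 genes with the higher value in replicate 2. A peak of 2.19 over the first exon was in replicate 2 only, where the antisense gene Gm20402 overlaps. No other part of the 6240-nt 3′ UTR had a peak in either list.

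In Foxo3 (ENSMUSG00000048756, chr10:42181841-42276755, minus strand, 4 exons, 6848 nt) the interval at the end of the third exon (chr10:42196356-42196977) had 6.46 and 3.99. The interval at the start of the last exon (chr10:42185942-42186433) had 5.84 and 4.2. Those 2 intervals were above the first coding interval, 3.59 and 1.9, and the far 3′ UTR interval, 2.01 and 1.96, in both lists. By the lower of both values Foxo1 and Foxo3 were number 690 and 483 of 9990. Of aligned codons, 149 were in shared intervals of both factors, 37% of those covered in Foxo1 and 52.1% of those covered in Foxo3. Of all aligned codons 46.3% were covered in Foxo3 and 65.2% in Foxo1, so neither share was above the coverage of the other factor.

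In the docking proteins and the forkhead factors the stop codon lay close to the last exon junction. The junction followed the last base of the stop codon by 21 nt in Irs1, 14 nt in Foxo1 and 35 nt in Foxo3, and came 5 nt before it in Irs2. Such a junction within 50 nt of the stop codon was found in 13% of 20190 multi-exon representative transcripts. On the genome each of these 4 genes had one shared interval on either side of the last intron, and on the spliced transcript those of Irs2, Foxo1 and Foxo3 met with no uncovered base between them. In Irs1 they met in replicate 1 and were 100 nt apart in replicate 2. Peaks reached past the exon edge into the intron. The reach was up to 142 nt in Irs1, 74 nt in Irs2, 128 nt in Foxo1 and 138 nt in Foxo3. On the spliced transcript only exonic bases were counted, so a peak that crossed the edge ends at the junction by that rule. The intervals that met at the junction did so in part because of it. In the receptors the last junction came 355 nt (Insr) and 382 nt (Igf1r) before the end of the stop codon, and a single interval spanned the codon inside the last exon. The stop codon itself lay in a shared interval in 6 of the 8 genes. The exceptions were Irs1, where a peak of replicate 1 alone covered it, and Akt1. Over all representative transcripts the share was 23.5%, 5108 of 21697. That base includes genes without any shared interval, while all 8 genes had one, so the 2 shares are over unlike sets. The 5108 are all among the 9999 protein-coding genes with a shared interval.

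Shared bases lay mainly in long exons. Of the 65 internal exons of the 8 transcripts, 5 had at least 400 nt, and all 5 held shared bases: exon 2 of Insr (552 nt), of Igf1r (546 nt) and of Foxo1 (1352 nt), and exons 2 and 3 of Foxo3 (730 and 1436 nt). Of the 60 shorter ones, 1 did, exon 5 of Akt1 with its fold enrichment of 1.14 and 1.23. The limit of 400 nt was set after the lengths were seen, in the gap between 322 and 546 nt. Over all protein-coding genes with a shared interval, 74.9% of internal exons of at least 400 nt held shared bases and 7.32% of shorter ones, the same direction as in the 8 genes. Akt1 and Akt2 have no internal exon above 215 nt, and Akt1 was the one gene whose last exon, of 957 nt, held no shared bases.

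**Figure D2:**
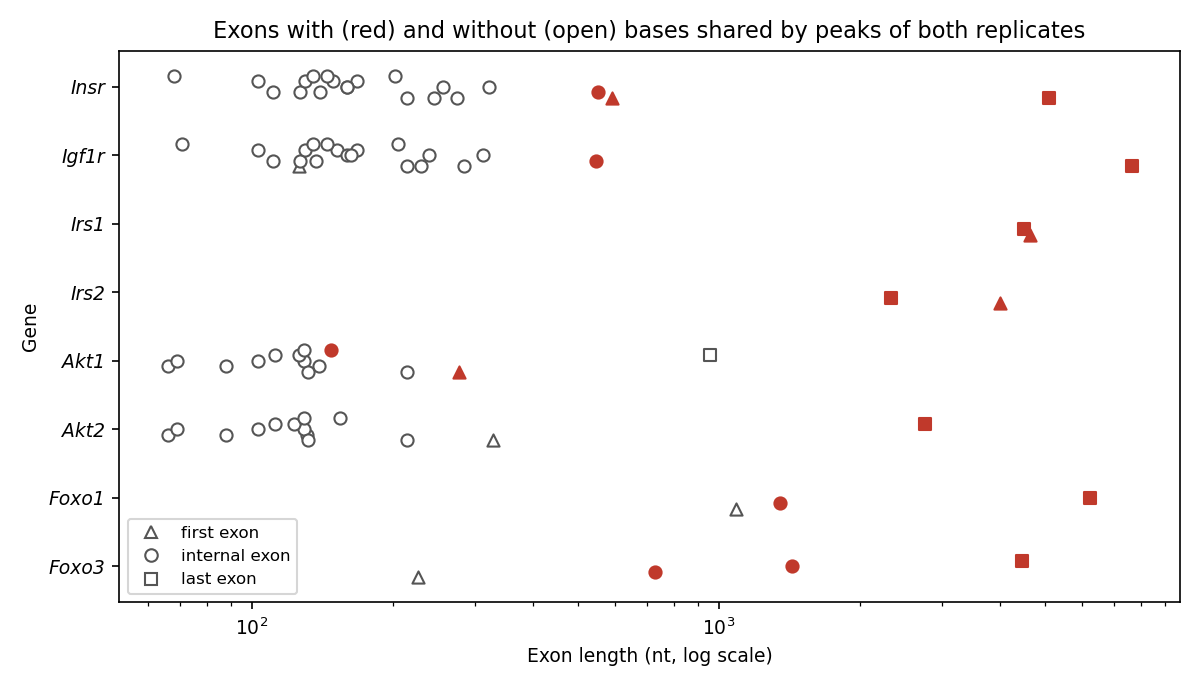
Length of every exon of the representative transcripts in nt on a log axis, by gene, with triangles for first, circles for internal and squares for last exons. Red exons hold bases shared by peaks of both replicates; among internal exons the red circles sit at 546 nt and above, except exon 5 of Akt1 at 148 nt.

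Where several peaks overlapped, those with most bases in common were matched. Of the 26 matched pairs over exons of the 8 genes, 23 had the higher fold enrichment in replicate 1, as did 77.9% of all 22457 matched pairs. The exceptions were the stop codon of Insr, the 3′ UTR of Foxo1 and exon 5 of Akt1. The median of the 26 pairs was 4.5 in replicate 1 and 2.77 in replicate 2, beside 3.03 and 2.33 over all pairs. A fold value is thus not comparable between lists, and the order of genes by the lower value rests mostly on replicate 2. Whether fold values of different genes are comparable within a list was not tested, since depth and transcript levels are unknown.

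**Figure D3:**
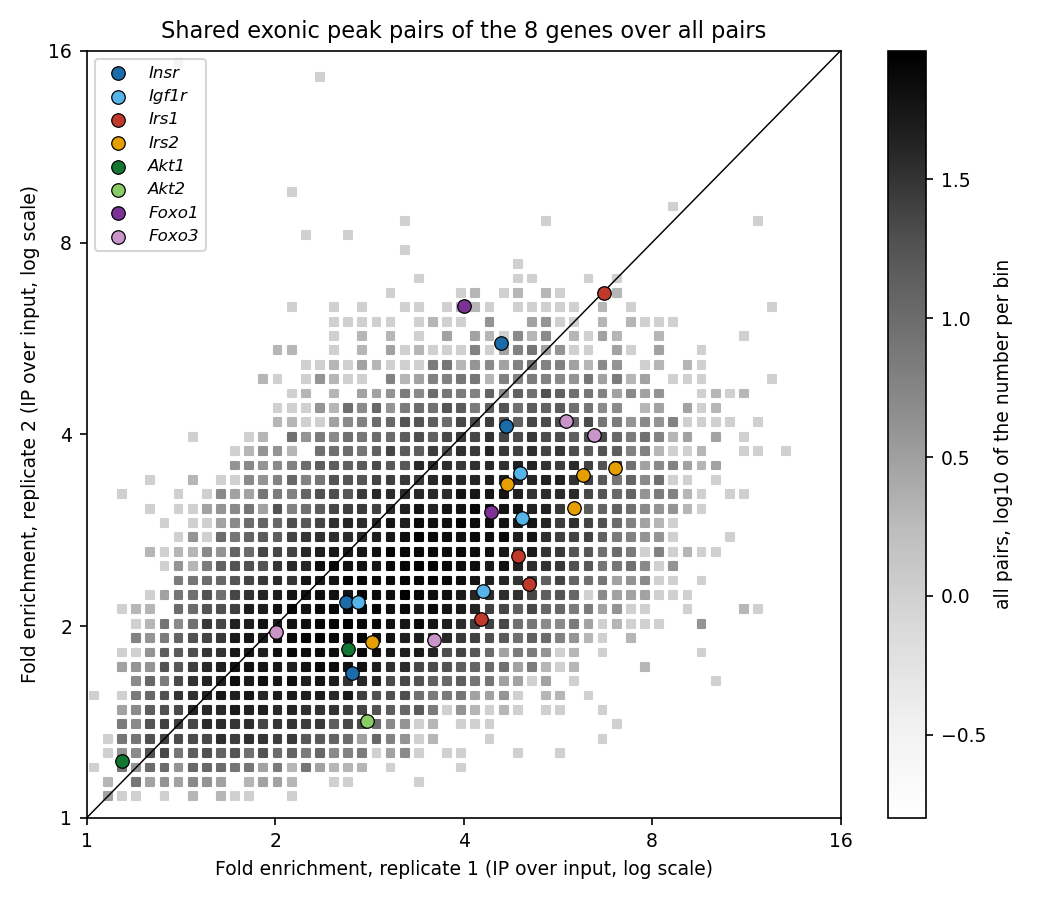
Fold enrichment (IP over input, log axes) of the 26 exonic pairs of the 8 genes in replicate 1 (horizontal) and replicate 2 (vertical), coloured by gene, over all 22457 pairs in grey bins whose shade is the log10 number of pairs. The line marks equal values; 23 points lie below it, and the topmost Irs1 point lies on it at 6.71 and 6.67.

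Beside the 8 genes, 41 others of the pathway were counted by role, from a list drawn up with earlier results known. A shared exonic interval was present in 34 of the 41, beside 45.6% of all protein-coding genes. By role these were 5 of 8 ligands and binding proteins, 1 of 2 receptors, 11 of 13 adaptors, 6 of 7 subunits of PI3K or Pdk1, all 6 phosphatases, the kinases Gsk3a and Gsk3b, both forkhead factors, and Tbc1d4, which acts on vesicle traffic downstream of Akt. The median of their strongest pairs by the lower value was 2.5, near the 2.64 of all genes and under the 3.77 of the 8 genes. The strongest pair is the highest of a gene's pairs. The 8 genes had a median of 4 shared intervals, against 2 over genes with any. Whether that count accounts for the difference was not tested, and the 8 genes were chosen with earlier results known.

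By the lower value the strongest were Irs4, a docking protein related to Irs1, with 5.14 in replicate 1 and 4.71 in replicate 2, and Pik3r1, the main regulatory subunit of PI3K, with 5.37 and 4.35. They were followed by Tbc1d4 at 4.52 and 4.25, the catalytic subunit Pik3ca at 7.17 and 4.15, and Sos1, an exchange factor for Ras, at 5.69 and 3.73. All 5 were under the 6.67 of Irs1 by the lower value, but in replicate 1 alone Pik3ca and the phosphatase Phlpp2, at 8.3, were above the 6.71 of Irs1. Ins2, Igf1, Igfbp6 and Insrr had no exonic peak in either list, which cannot be told apart from a low transcript level, since no levels were measured here. Shc1 and Grb14 had 1 exonic peak each, and Pdpk1 2, in replicate 1 alone.

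**Figure D4:**
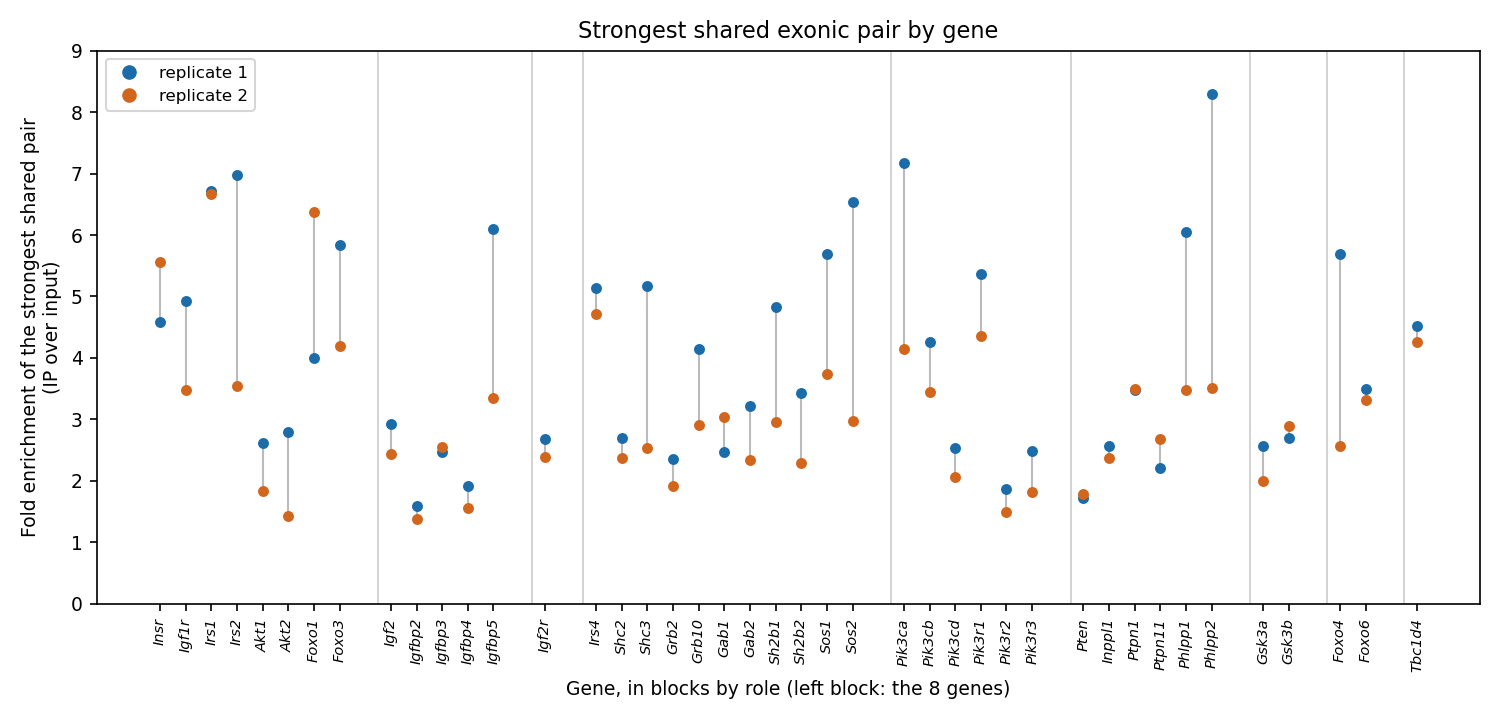
Fold enrichment (IP over input) of the strongest shared exonic pair of each gene in replicate 1 (blue) and replicate 2 (orange), joined by a line, for the 8 genes in the left block and for 34 other pathway genes in blocks by role. Irs1 has both points near 6.7, while Akt1 and Akt2 have both below 3.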

How the data were processed

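m6A-seq libraries came from mRNA of whole mouse brain, fragmented and precipitated with an anti-m6A antibody. Reads were 101 nt long per the labels. Per the study's methods the authors trimmed them, aligned them to mm10, kept unique alignments of mapping quality 20 or more, and called peaks with MACS2 for each replicate against its own input, keeping duplicates, at a false discovery rate of 0.05. The submitters' processing notes name TopHat2 2.0.9. The deposited lists give each peak's chromosome, start and end and its enrichment, the ratio (fold) of IP to input on a linear scale; counts and strand are not in them, so the depth is unknown. Starts and ends were taken as 1-based.

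Peaks were joined to exons of GENCODE M21 (GRCm38, the mm10 assembly). As a check of the build, 99.08% of 21644 annotated start codons read ATG and no peak lay past a chromosome end. Peaks overlapping by at least 1 bp were called shared, and a pair was made of peaks that shared most bases with each other. The representative transcript has the longest coding sequence. Coding sequences were aligned with Biopython 1.88 (BLOSUM62) after translation. Overlap code was checked on simulated peaks and against bedtools. The 8 genes and all lists were chosen with earlier results of these data known, so no test was run. The genes named are the 8, the 5 strongest other pathway genes, those without a peak, and the neighbours of Irs1 in rank (up to 3 on each side); Shc1, Grb14, Pdpk1 and Phlpp2 were added after their values were seen, and 1 gene of the pathway list is not reported here. The 2 input samples had no separate file used here. Alternatives were other overlap, merging, exon and fold limits and each replicate alone; RefSeq exons and joining across junctions were added after seeing the data.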

Additional observations from a re-analysis of the deposited data

Results flagged for a closer look

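Peaks called in both lists but outside the exons used above were found at 3 of the 8 genes. In Insr a peak in intron 10 (chr8:3176384-3176753 in replicate 2) was enriched 6.8-fold in replicate 1 and 3.77-fold in replicate 2, above 98% and 93.2% of the peaks of those lists, and no M21 exon of another gene lies under it; in replicate 1 this was above every exonic peak of Insr. Before the first GENCODE exon of Irs2 a peak of 1.76 in replicate 1 overlapped the first replicate 2 peak of the gene, of 3.04, which also reaches into that exon. Before the first GENCODE exon of Igf1r the peaks had 1.71 in replicate 1 and 2.13 in replicate 2.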

How the results depend on the processing

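All 8 genes kept a shared exonic interval under every alternative run for it, except when peaks under 2-fold were dropped from either list, which left 6, without Akt1 and Akt2. The total of 27 intervals ranged from 20 under that limit to 29 with RefSeq exons, was 24 with midpoints within 100 bp and with intervals joined across a junction, and was 31 to 34 in single lists. Irs1 had 3 to 5 intervals, and Irs2 fell from 6 to 3, under the 4 of Irs1, with midpoints within 100 bp. The lower value of the strongest pair did not change in any of 54 values recomputed from both lists. Akt1 and Akt2 kept no pair under the 2-fold limit and are not among the 54. Most of these settings act on weaker peaks or exon edges, so a gene's highest pair could hardly move. Without replicate 1 or without replicate 2 the value of Irs1 was 6.67 to 6.71. Without replicate 2 the value of Irs2 was 6.98, which turns the order of the 2 genes. The share with GGACT, 66.7%, was 100% with GGAC and 25.9% in windows of 100 nt. RefSeq exons and the joining were chosen after seeing the data. No paired analysis was possible because no test was run and both IP samples belong to 1 group. Limits: with 2 replicates, unknown depth and no transcript levels, a missing peak can be a lowly expressed transcript, and fold values cannot be given an error; whether depth or expression moved with them was not tested.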
